A study of Mus musculus with 11 samples.

Results

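The oxidative phosphorylation subunits are the nuclear-encoded proteins of the respiratory chain and of ATP synthase. Their genes were described here complex by complex in the adventitia, the connective tissue sheath around the artery, of the mouse abdominal aorta. Members were chosen by gene symbol alone. They are every gene with a probe set of a single symbol that starts with Nduf, Uqcr or Atp5, or is Sdha to Sdhd, Cyc1, Cycs or a Cox4 to Cox8 gene, with assembly factors starting with Ndufaf and the isoforms Cox8b and Cox7a1 left out. This gave 79 genes of 12393 with 152 of 22626 probe sets: 34 genes of complex I, 4 of complex II, 9 of complex III, cytochrome c, 14 of complex IV and 17 of complex V. All 79 passed the filter on low signals through 145 probe sets, and the probe set with the highest mean signal stood for a gene.

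RNA was measured on 11 Affymetrix arrays of laser-dissected tissue. There were 4 arrays of adventitia with artery tertiary lymphoid organs (ATLO), lymphocyte aggregates beside atherosclerotic lesions, and 4 of adventitia away from lesions, called outside-lesion here, both from Apoe-deficient mice of the strain B6.129P2-Apoe<tm1Unc>/J. The other 3 came from adventitia of C57BL wild-type mice. All mice were male, 78 weeks old and on standard chow, and the labels name no agent given to them. For the Apoe-deficient samples the aorta was taken out with nodes, fat and connective tissue around it, material of 200 sections of 10 micrometres was pooled, RNA was purified with phenol, chloroform and an RNeasy Micro kit, and amplification by in vitro transcription ran for 68 h. The wild-type samples were purified with a lipid tissue kit and amplified for 24 h, so a difference from wild type and a difference from that handling cannot be told apart. The titles of the wild-type samples also hold the letters PNS, which the labels do not explain. The series' design text describes the second group as mice without lesions, and its sample labels as tissue beyond the lesion area. The labels do not say whether samples of a group came from separate animals. A p-value then measures the spread among these samples only, and that spread may be technical.

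Complexes I and II pass electrons from NADH and succinate to ubiquinone, complex III hands them to cytochrome c, and complex IV passes them on to oxygen. Complexes I, III and IV pump protons out of the mitochondrial matrix, and complex V, ATP synthase, makes ATP from the returning protons. Brown fat, which is found around the aorta of rodents, holds many mitochondria and uses uncoupling protein 1 (Ucp1) to turn the proton gradient into heat.

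Apoe checked the genotypes: its signal, the deposited scaled intensity of a probe set, was 86.9 to 150.2 on the ATLO arrays, 45.9 to 179.7 on the outside-lesion arrays and 11969 to 13164 on the wild-type arrays. Median array signals lay between 151.5 and 191. The actin 3' to 5' control ratio, a sign of RNA or amplification quality, ranged from 1.71 to 8.14 on the ATLO arrays, 6.22 to 11.99 on the outside-lesion arrays and 4.19 to 5.40 on the wild-type arrays. Arrays carry no counts, so their number limits the precision. Of the marker lists, 7 of 7 B cell, 7 of 7 T cell and 6 of 7 macrophage genes were higher in ATLO than outside-lesion adventitia, and 11 of 12 adipocyte and 8 of 9 tested brown fat genes were lower. Of the other lists, 5 of 6 fibroblast genes were higher, 3 of 8 smooth muscle and 3 of 6 endothelial genes were lower, and 0 of 6 neuron genes were called. By the test described below, 19.8% of all genes were higher and 14.9% lower. In such tissue samples fewer cells of a type and less RNA per cell cannot be told apart.

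Oxidative phosphorylation genes were lower in ATLO adventitia than in adventitia away from lesions in every complex. By limma with Benjamini-Hochberg adjustment over 14988 probe sets and a threshold of 0.05, 72 of the 79 genes fell and 0 rose, where 14.9% of 9055 genes were called lower and 19.8% higher. At an unadjusted p under 0.05, 73 were lower and 0 higher. The median log2 change of the members was -1.50, against 0.11 over all genes, and the 72 genes were 1.38-fold to 4.39-fold lower with a median of 2.90-fold. At least 2-fold was reached by 63 of them. On 70 genes every ATLO array lay below every outside-lesion array (14.1% of all genes), and on 1 gene, Cox6a2, every ATLO array lay above (19.2% of all genes).

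The counts by complex were 33 of 34 genes lower for complex I with a median log2 change of -1.54, 4 of 4 for complex II with -1.66, and 9 of 9 for complex III with -1.88. Cytochrome c fell by 2.13 on the log2 scale, which was the largest change of any member. Complexes IV and V had the smaller medians, with 9 of 14 genes lower and -1.30, and 16 of 17 lower and -1.18. The 7 genes that did not pass the test were Ndufb1 of complex I, Cox4i2, Cox6a2, Cox6b2, Cox7a2l and Cox7c of complex IV and Atp5g1 of complex V. The probe sets of Ndufb1, Cox7c, Cox4i2, Cox6a2 and Cox6b2 had signals far below those of most members. A missing call there does not show that a gene was unchanged. Differences between complexes were not tested. Wild-type signals lay between the other groups for most members: the group means ran ATLO, wild type, outside-lesion from low to high on 70 of 79 members, an order found in 18% of all genes. The plot of all members by array shows this gradient, and also shows that outside-lesion replicate 2 lay apart from the other outside-lesion arrays.

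**Figure D1:**
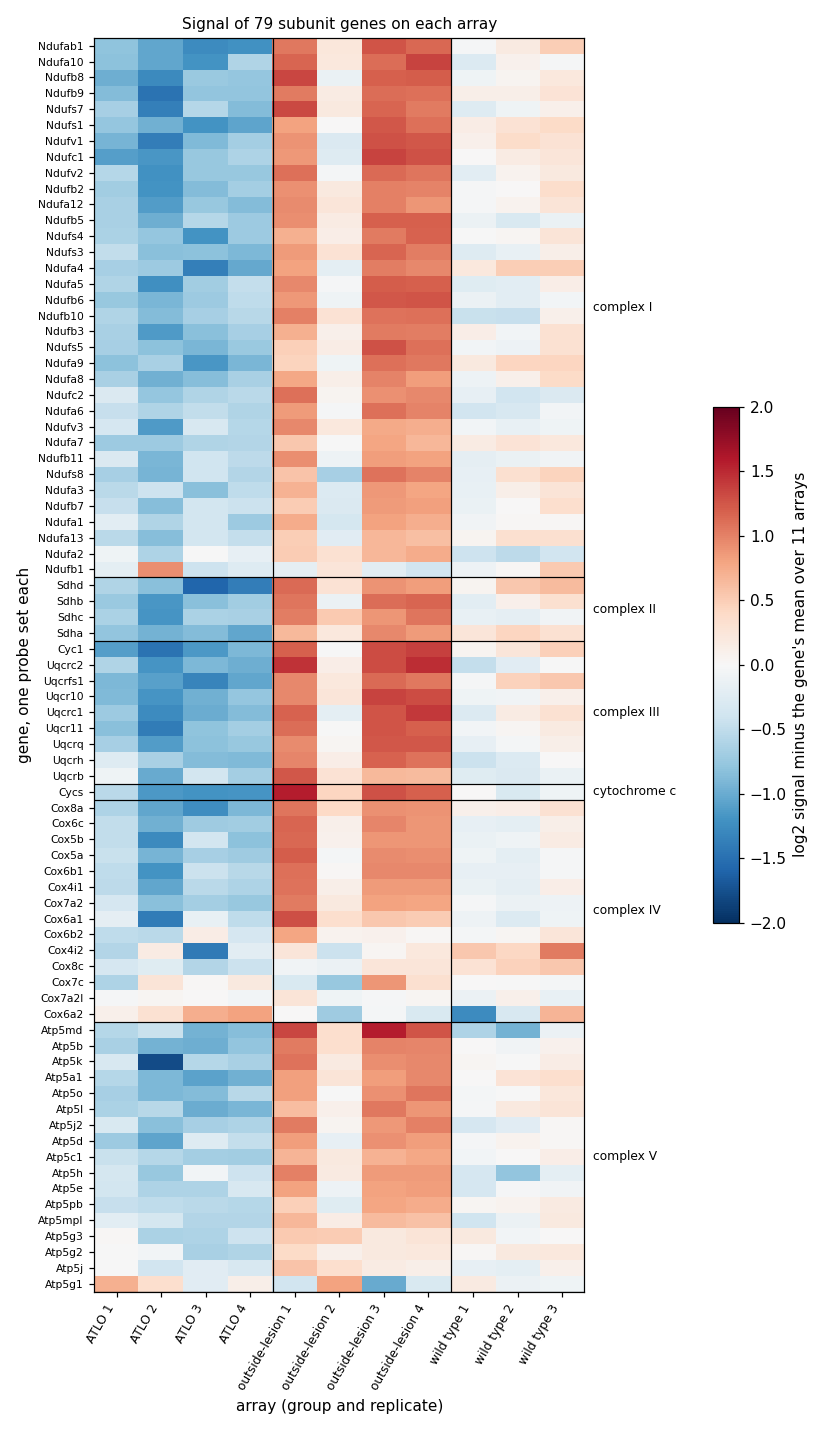
Log2 signal of each of the 79 subunit genes (rows, by complex) on each of the 11 arrays (columns, by group), drawn as the deviation from the gene's mean over the arrays. The ATLO arrays are low and outside-lesion replicates 1, 3 and 4 are high for nearly all rows, while outside-lesion replicate 2 lies nearer to the wild-type arrays.

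**Figure D2:**
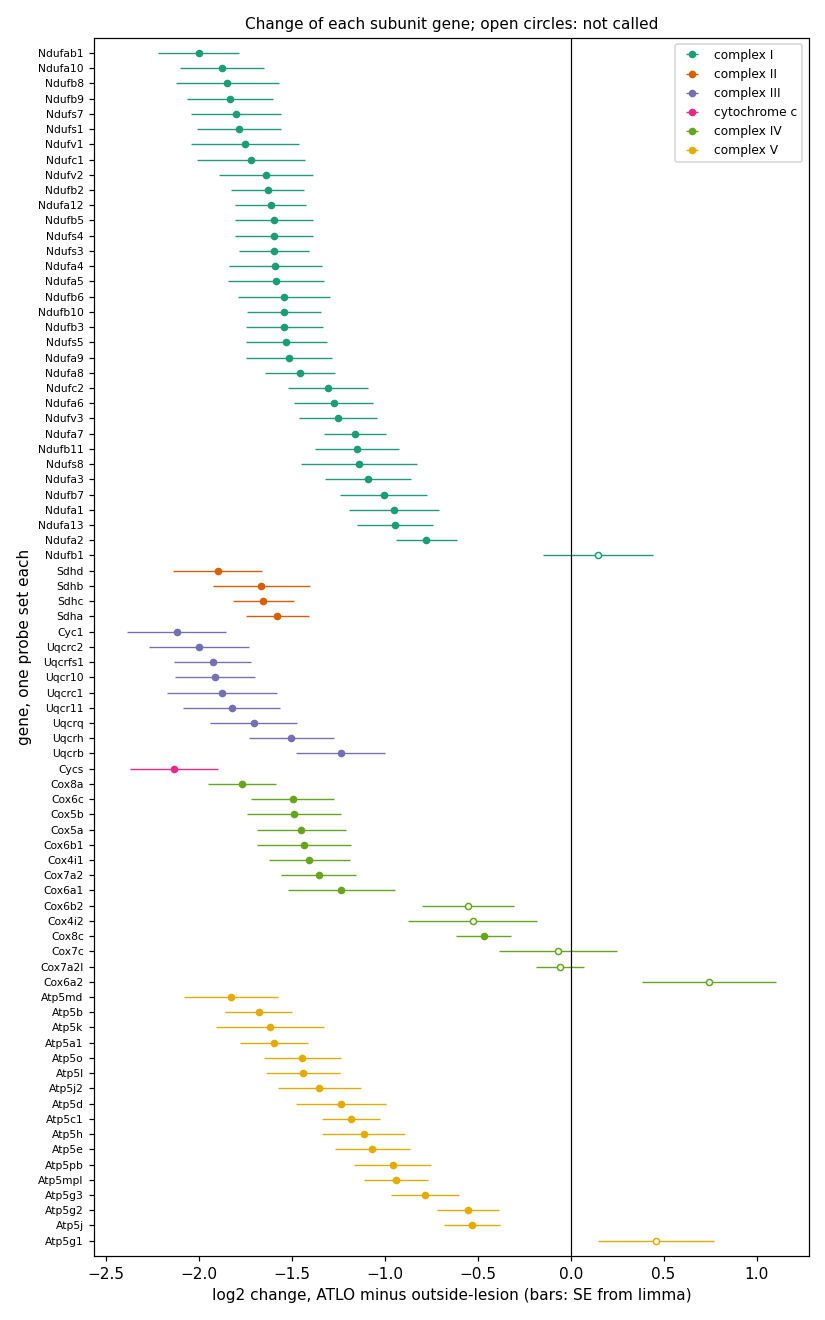
Log2 change of each subunit gene between ATLO and outside-lesion adventitia, with its standard error, ordered within each complex; filled points were called at an adjusted p under 0.05 and open points were not. The 72 called genes lie below 0, and the 7 open points are the genes of complexes I, IV and V that did not pass the test.

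Promoters are shown for 5 members that moved together or stood out from the rest, because nuclear respiratory factor 1 (NRF1) and the ETS factor GABP are textbook regulators of these genes. Sequences are the 250 bases upstream of a transcript start in RefSeq's GRCm38.p6 table, which held 64 of the 79 members. Both strands were searched for the NRF1 core GCATGCGC, a longer form of it, the ETS motif CCGGAAG, the ERR motif AAGGTCA and the YY1 motif AAGATGG. The core was added after a first search with the longer form, and the genes shown were chosen after the matches were seen. Capitals mark matches. The windows are Sdhb at chr4:140961021-140961270 (plus strand), Uqcr11 at chr10:80406822-80407071 (minus strand), Cycs at chr6:50566570-50566819 (minus strand), Cox6a1 at chr5:115348959-115349208 (minus strand) and Cox7a2l at chr17:83514334-83514583 (minus strand). The Cycs window lies within the annotated span of the noncoding RNA gene 5430402O13Rik.
Sdhb: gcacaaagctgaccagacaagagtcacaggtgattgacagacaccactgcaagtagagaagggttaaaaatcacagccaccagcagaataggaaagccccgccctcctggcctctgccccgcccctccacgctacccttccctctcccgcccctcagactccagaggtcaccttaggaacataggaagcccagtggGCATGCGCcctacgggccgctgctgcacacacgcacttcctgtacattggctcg
Uqcr11: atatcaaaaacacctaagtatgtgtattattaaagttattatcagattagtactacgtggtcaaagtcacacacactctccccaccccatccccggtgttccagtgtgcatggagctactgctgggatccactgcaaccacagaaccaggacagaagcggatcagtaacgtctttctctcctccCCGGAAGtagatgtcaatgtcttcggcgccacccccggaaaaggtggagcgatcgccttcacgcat
Cycs: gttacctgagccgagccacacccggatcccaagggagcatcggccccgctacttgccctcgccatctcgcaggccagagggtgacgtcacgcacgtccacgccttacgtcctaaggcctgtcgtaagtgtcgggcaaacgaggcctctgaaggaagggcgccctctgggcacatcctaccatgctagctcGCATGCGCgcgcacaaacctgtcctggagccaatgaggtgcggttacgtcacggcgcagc
Cox6a1: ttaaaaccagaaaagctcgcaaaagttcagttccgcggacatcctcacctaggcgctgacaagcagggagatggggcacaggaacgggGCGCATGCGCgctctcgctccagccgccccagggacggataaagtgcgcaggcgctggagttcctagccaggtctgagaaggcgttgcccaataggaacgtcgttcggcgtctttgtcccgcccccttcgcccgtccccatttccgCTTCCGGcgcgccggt
Cox7a2l: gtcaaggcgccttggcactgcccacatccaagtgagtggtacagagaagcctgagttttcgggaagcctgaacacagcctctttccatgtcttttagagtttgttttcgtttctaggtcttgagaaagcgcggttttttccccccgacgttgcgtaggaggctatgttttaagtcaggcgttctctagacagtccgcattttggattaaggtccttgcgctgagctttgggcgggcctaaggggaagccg
Sdhb and Cycs hold an NRF1 core, Uqcr11 an ETS motif, Cox6a1 both kinds and Cox7a2l none of the motifs in this window. Most of the 64 members held none of the motifs. Among these were Ndufab1, Cox8a and Atp5b, which were lower in ATLO than outside-lesion adventitia, and Cox7c and Atp5g1, which were not called. A link between motifs and changes was not tested. Over the 64 members, 8 (12.5%) held the NRF1 core, compared with 2.56% of the 27025 genes in the table over the same length, and 3 (4.69%) held the longer form, compared with 0.877%. The 8 genes were Ndufa6 and Ndufa8 of complex I, Sdhb, Cycs, Cox6a1, and Atp5g2, Atp5k and Atp5l of complex V. The ETS motif was found in 12 members (18.8%, against 7.83% of genes), the ERR motif in 4 (6.25%, against 4.70%) and the YY1 motif in 1, Atp5j (1.56%, against 5.18%). The 27025 genes were not limited to those on the arrays and were not matched to the members in base content, so the shares compare unlike sets. These are matches of letters and were not tested as binding sites.

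Of complex I 33 of 34 genes fell, core and supernumerary subunits among them. The 6 core subunits among the members, which as a group carry the NADH site and the iron-sulphur clusters, were all lower, with log2 changes between -1.80 and -1.14 and a median of -1.70, and 27 of 28 supernumerary subunits were lower, at a median of -1.54. Ndufab1, the mitochondrial acyl carrier protein that is also a subunit of complex I, had the largest change. Its signals were 1985, 1682, 1442 and 1492 on the ATLO arrays, 7165, 4048, 8325 and 7678 on the outside-lesion arrays and 3394, 3916 and 4852 on the wild-type arrays. All ATLO arrays lay below all others, and only outside-lesion replicate 2 came into the wild-type range. The log2 change between ATLO and outside-lesion adventitia was -2.003 ± 0.22 (SE, adjusted p = 3.04e-05), which is 4.01-fold.

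Ndufs1, the largest core subunit of complex I, read 1060.1, 939, 791 and 878 on the ATLO arrays, 3173, 1825, 4325 and 3910.4 on the outside-lesion arrays and 2023, 2228 and 2375 on the wild-type arrays. The ATLO arrays were again the lowest, and outside-lesion replicate 2 fell below the wild-type arrays. Its log2 change was -1.79 ± 0.22 (SE, adjusted p = 7.46e-05). Ndufv1, which binds NADH and FMN, read 1842, 1342, 1894 and 2183 in ATLO and 6547, 2862, 8432 and 8322 in outside-lesion adventitia, with a log2 change of -1.75 ± 0.29 (SE, adjusted p = 0.000493). The groups did not overlap, with outside-lesion replicate 2 the closest to the ATLO arrays. The other core subunits Ndufv2, Ndufs7 and Ndufs3 changed by -1.64, -1.80 and -1.59 on the log2 scale (adjusted p = 0.000292, 0.000109 and 4.88e-05).

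Ndufs8, a core subunit that holds iron-sulphur clusters, was the core subunit with the smallest change and the only one whose groups overlapped. It read 3272, 2742, 3939 and 3449 in ATLO and 7722, 3278, 11005 and 10290.1 in outside-lesion adventitia, so that outside-lesion replicate 2 fell within the ATLO range. Its log2 change was -1.14 ± 0.31 (SE, adjusted p = 0.0138), and the call was lost without the filter on low signals (adjusted p = 0.0563) and with the actin ratio as a covariate (adjusted p = 0.201). Of its 6 probe sets, 5 were called lower. Ndufa10 and Ndufb8, supernumerary subunits, followed Ndufab1 in size of change with -1.88 ± 0.23 (SE, adjusted p = 5.69e-05) and -1.85 ± 0.28 (SE, adjusted p = 0.000253). Ndufa4, named for complex I and now placed with complex IV, changed by -1.59 ± 0.25 (SE, adjusted p = 0.000343). By its symbol it was counted here with complex I, among the supernumerary subunits, and not with complex IV.

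The smallest changes of complex I were those of Ndufa2 and Ndufb1, both supernumerary subunits. Ndufa2 read 5844, 4042, 6179.7 and 5534 on the ATLO arrays, 8841, 7697, 9818 and 10433 on the outside-lesion arrays and 4651, 4344 and 4763 on the wild-type arrays. Its ATLO signals overlapped the wild-type ones, and its outside-lesion signals were higher than both. It fell by a log2 change of -0.78 ± 0.16 (SE, adjusted p = 0.00288), which did not pass with the actin ratio as a covariate (adjusted p = 0.064). Ndufb1 had 1 probe set, which read 122 to 312 in ATLO, 125 to 194 in outside-lesion and 152 to 235 in wild-type adventitia. Its groups overlapped and its log2 difference was 0.15 ± 0.30 (SE, adjusted p = 0.745), a value that rested on ATLO replicate 2 at 311.6: without that array it was -0.16.

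Complex II, succinate dehydrogenase, links the chain to the tricarboxylic acid cycle, and all 4 of its genes fell without overlap between the groups. Sdha, the flavoprotein that oxidises succinate, read 3004, 2688, 2829 and 2509 on the ATLO arrays, 8066, 5969.8, 10105 and 9362 on the outside-lesion arrays and 6128, 6952 and 6353 on the wild-type arrays. The ATLO arrays lay within a narrow range, and the lowest of the other arrays was outside-lesion replicate 2. The log2 change was -1.58 ± 0.17 (SE, adjusted p = 2.77e-05). Sdhc, a membrane anchor that holds part of the haem site, read 1179, 801, 1169 and 1159 on the ATLO arrays, 3701, 2622, 3375 and 3835 on the outside-lesion arrays and 1641, 1601 and 1731 on the wild-type arrays. The order ATLO, wild type, outside-lesion held array by array without overlap. Its log2 change of -1.65 ± 0.16 (SE, adjusted p = 1.99e-05) had the smallest adjusted p of all members.

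Sdhd, the other membrane anchor, read 1536, 1313, 776 and 896 in ATLO and 5153, 2875, 4385 and 4191 in outside-lesion adventitia. ATLO replicates 3 and 4 were the lowest. The log2 change of -1.90 ± 0.24 (SE, adjusted p = 7.37e-05) was the largest of the complex. Sdhb, the iron-sulphur subunit, changed by -1.66 ± 0.26 (SE, adjusted p = 0.000332). Its outside-lesion replicate 2, at 5968, stood far from the other outside-lesion arrays, at 13695 to 14482, and was still above the highest ATLO array.

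Complex III and cytochrome c, its electron acceptor, had the largest median changes. Cyc1, the cytochrome c1 subunit that passes electrons to cytochrome c, read 3116, 2401, 3011 and 3581 on the ATLO arrays, 15367, 6654, 16462 and 17177 on the outside-lesion arrays and 6906, 7894 and 9244 on the wild-type arrays. The ATLO arrays were lowest, and outside-lesion replicate 2 fell just below the wild-type arrays. The means were 3027 ± 486 (SD, n = 4) in ATLO and 13915 ± 4898 (SD, n = 4) in outside-lesion adventitia, and the log2 change was -2.12 ± 0.27 (SE, adjusted p = 7.59e-05). Cycs, somatic cytochrome c, read 6703, 4410.4, 4277 and 4318 on the ATLO arrays, 28946, 13139.9, 23687 and 22429 on the outside-lesion arrays and 9786, 7924 and 9184 on the wild-type arrays. All outside-lesion arrays were above all wild-type arrays, which were above all ATLO arrays. The log2 change was -2.13 ± 0.24 (SE, adjusted p = 3.51e-05), or 4.39-fold.

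The Rieske iron-sulphur protein Uqcrfs1 read 1860.3, 1643, 1391 and 1702 in ATLO and 6788, 4028, 7617 and 7250.2 in outside-lesion adventitia, a log2 change of -1.93 ± 0.21 (SE, adjusted p = 3e-05). The core proteins Uqcrc1 and Uqcrc2, which form the matrix side of the complex, changed by -1.88 ± 0.30 (SE, adjusted p = 0.000355) and -2.0 ± 0.27 (SE, adjusted p = 0.000109). For Uqcrc2 every outside-lesion array was also above every wild-type array. Of the small subunits, the changes ran from -1.92 for Uqcr10 to -1.24 for Uqcrb, and Uqcr11, Uqcrq and Uqcrh lay between these. Uqcrb, a ubiquinone-binding subunit, read 18435, 9729.6, 15124 and 12216 on the ATLO arrays, 46121, 23938, 30701 and 30159 on the outside-lesion arrays and 16545, 15926 and 17761 on the wild-type arrays. Its ATLO and wild-type arrays overlapped, and its log2 change from outside-lesion adventitia was -1.24 ± 0.24 (SE, adjusted p = 0.00155), the smallest of the complex.

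In complex IV, cytochrome c oxidase, the general isoforms fell and the isoforms of few tissues mostly did not pass the test. Of 9 general subunits 8 were lower (median log2 change -1.44), and of 4 isoforms known from few tissues 1 was lower, with a median of -0.50. Cox8a, the general isoform of the smallest subunit, read 5027, 3785, 3278 and 4141 on the ATLO arrays, 16271, 10166, 14630.0 and 14399 on the outside-lesion arrays and 8284, 8452 and 9512 on the wild-type arrays. The groups did not overlap at any point. Its log2 change was -1.77 ± 0.18 (SE, adjusted p = 2.43e-05), the largest of the complex. Cox4i1, the general isoform of the subunit at which ATP regulates the enzyme, read 8849, 6219.8, 8736 and 8330.3 in ATLO and 26998, 13794, 23113 and 23028 in outside-lesion adventitia, a log2 change of -1.41 ± 0.22 (SE, adjusted p = 0.000293). Cox5b and Cox5a, matrix-side subunits, changed by -1.49 (adjusted p = 0.000585) and -1.45 (adjusted p = 0.000493), and Cox6c and Cox7a2, small membrane subunits, by -1.50 (adjusted p = 0.000231) and -1.36 (adjusted p = 0.000226).

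For subunits 4, 6a and 6b the general isoform was called and the tissue isoform was not. Cox6b1, an intermembrane-space subunit, changed by -1.44 ± 0.25 (SE, adjusted p = 0.00078), while its testis isoform Cox6b2 read 97.9 to 158 in ATLO and 146 to 247 in outside-lesion adventitia, with overlap and a log2 difference of -0.55 ± 0.25 (SE, adjusted p = 0.109). Cox6a1 changed by -1.23 ± 0.29 (SE, adjusted p = 0.00518), a call that did not pass with the actin ratio as a covariate (adjusted p = 0.117). Cox6a2, the isoform of heart and skeletal muscle, read 143, 165, 221 and 233 in ATLO and 134, 82, 131 and 108 in outside-lesion adventitia. It was the member with all ATLO arrays above all outside-lesion arrays, but its log2 difference of 0.74 ± 0.36 (SE, adjusted p = 0.138) did not pass the test. Cox4i2, the isoform known from lung, read 62.2, 104, 20 and 80.4 in ATLO and 110.1, 69.2, 95.8 and 108 in outside-lesion adventitia, with overlap and a log2 difference of -0.53 ± 0.35 (SE, adjusted p = 0.274). These isoforms lay in the low range of the arrays, at 20 to 246.7. In this comparison the floor of 35.1 reached only Cox4i2 on ATLO replicate 3, at 20, and can understate its difference. Whether isoforms differ in response was not tested.

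Cox8c, the testis isoform of subunit 8, was the tissue isoform called lower, at 403, 432, 341 and 380.1 in ATLO and 483, 471, 600.4 and 604 in outside-lesion adventitia with a log2 change of -0.47 ± 0.15 (SE, adjusted p = 0.0279). Cox7c, a small general subunit, was the general subunit without a call. Its tested probe set read 137, 253, 215 and 242 on the ATLO arrays, 171, 125, 389.9 and 263 on the outside-lesion arrays and 213, 210.4 and 206 on the wild-type arrays, and the groups overlapped. The log2 difference was -0.07 ± 0.32 (SE, adjusted p = 0.891). Cox7a2l, a factor that joins complexes III and IV into supercomplexes, read 3190.3, 3325, 3237 and 3123 on the ATLO arrays, 3881, 3044, 3189 and 3330.5 on the outside-lesion arrays and 2963, 3464 and 2901 on the wild-type arrays. All 11 arrays lay within a narrow range. Its log2 difference was -0.06 ± 0.13 (SE, adjusted p = 0.772), and neither of its other probe sets was called.

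Cox8b and Cox7a1, isoforms of brown fat and striated muscle that the selection left out, changed more than any member. Cox8b read 1377, 828, 2639 and 2696 on the ATLO arrays, 33038, 3658, 28427 and 27089.9 on the outside-lesion arrays and 6949.9, 9701 and 11304 on the wild-type arrays, with a log2 change of -3.37 ± 0.60 (SE, adjusted p = 0.000794). Cox7a1 read 119.5, 75.3, 409 and 343 on the ATLO arrays, 9036, 178, 11083 and 11142 on the outside-lesion arrays and 849, 2055 and 2739 on the wild-type arrays, with a log2 change of -4.32 ± 1.09 (SE, adjusted p = 0.00853). For both genes outside-lesion replicate 2 was far below the other outside-lesion arrays and below the lowest wild-type array, and for Cox7a1 it fell within the ATLO range.

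In complex V, ATP synthase, the subunits of the catalytic head all fell, and the genes of the c ring had the smallest median change, -0.55. The 5 subunits of the F1 head were all lower, with log2 changes from -1.68 to -1.07 and a median of -1.24. Atp5b, the catalytic beta subunit, read 6862, 5592, 5443 and 6225 on the ATLO arrays, 22213, 13594, 21297 and 21294 on the outside-lesion arrays and 10808, 10256 and 11380.3 on the wild-type arrays. The groups did not overlap. Its log2 change was -1.68 ± 0.18 (SE, adjusted p = 3e-05). Atp5a1, the alpha subunit, changed by -1.60 ± 0.18 (SE, adjusted p = 4.15e-05). The 4 subunits of the stator stalk, which holds the head against rotation, were all lower, from -1.44 for Atp5o to -0.53 for Atp5j, with a median of -1.04.

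The 5 small membrane subunits were all lower with a median of -1.44. Atp5md, which takes part in the dimers of ATP synthase, read 2758, 3022, 2122 and 2285 on the ATLO arrays, 10327, 5211, 12148 and 9843 on the outside-lesion arrays and 2689, 2129 and 3769.8 on the wild-type arrays. The outside-lesion arrays stood above both other groups, and the ATLO and wild-type arrays overlapped. Its log2 change was -1.83 ± 0.25 (SE, adjusted p = 0.000139), the largest of the complex. Atp5k, another membrane subunit, changed by -1.62 ± 0.29 (SE, adjusted p = 0.000894). Atp5j, the stalk subunit called coupling factor 6, read 4644, 3565, 3991 and 3753 in ATLO and 6919, 5894, 5249 and 5042 in outside-lesion adventitia. Its log2 change of -0.53 ± 0.15 (SE, adjusted p = 0.0162) did not pass after quantile normalization (adjusted p = 0.0639), with the actin ratio as a covariate (adjusted p = 0.159) or without outside-lesion replicate 1 (adjusted p = 0.0515).

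The genes Atp5g1, Atp5g2 and Atp5g3 encode the same mature c subunit of the rotor ring with different import sequences, and they differed in their calls. Atp5g3 read 11854, 7484, 7589 and 8698 in ATLO and 16774, 16580.0, 13315 and 13945 in outside-lesion adventitia, with a log2 change of -0.79 ± 0.18 (SE, adjusted p = 0.00487). Atp5g2 read 2871, 2776, 1847 and 1899 in ATLO and 3775, 3099.7, 3303 and 3345 in outside-lesion adventitia, with -0.55 ± 0.17 (SE, adjusted p = 0.0212). For both genes the groups did not overlap, but the Atp5g2 call was lost when ATLO replicate 3, ATLO replicate 4 or outside-lesion replicate 1 was left out (adjusted p = 0.066, 0.0701 and 0.0592). Atp5g1 read 1111, 855, 578 and 739.5 on the ATLO arrays, 519.8, 1182, 336 and 552 on the outside-lesion arrays and 766, 624 and 644 on the wild-type arrays. The highest array was outside-lesion replicate 2 and the lowest outside-lesion replicate 3, so the groups overlapped. Its log2 difference was 0.46 ± 0.31 (SE, adjusted p = 0.287). Without outside-lesion replicate 2 it was higher in ATLO adventitia by 0.80 ± 0.23 (SE, adjusted p = 0.0199), the single member called higher under any setting of this comparison.

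**Figure D3:**
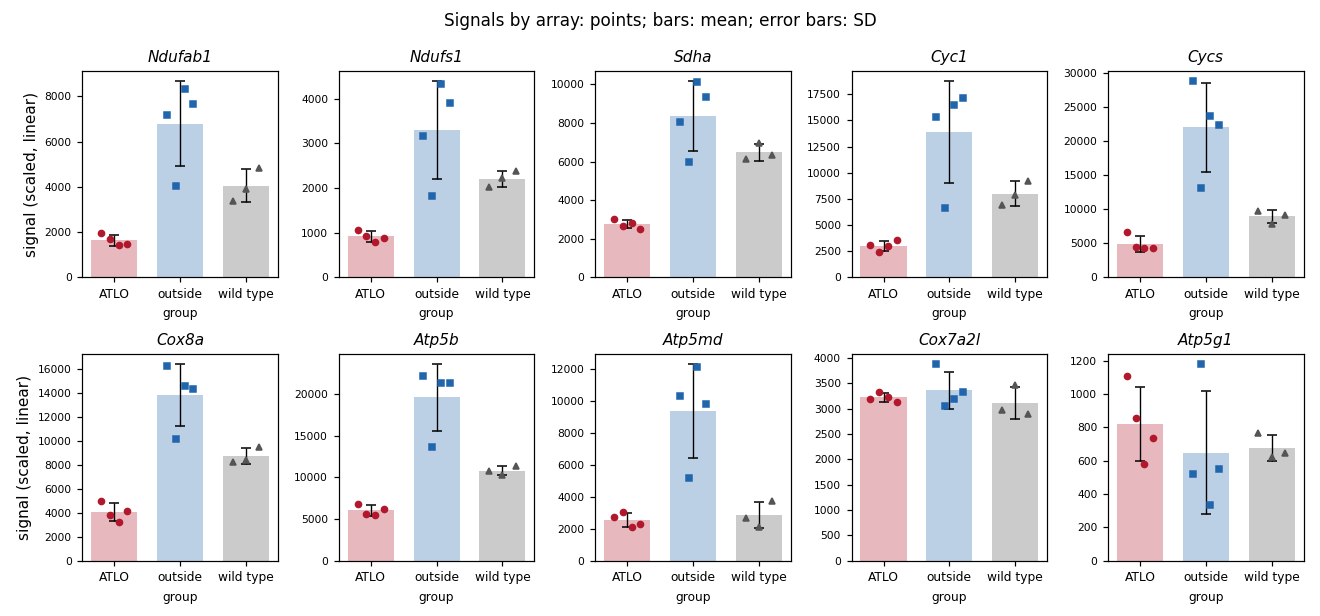
Signals of 10 subunit genes on the 11 arrays, by group, with each array as a point, the group mean as a bar from 0 and the SD as an error bar. The ATLO bars are the lowest for Ndufab1, Ndufs1, Sdha, Cyc1, Cycs, Cox8a and Atp5b, ATLO and wild type overlap for Atp5md, and all groups overlap for Cox7a2l and Atp5g1.

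Outside-lesion replicate 2 stood apart from its group. It was the lowest of the 4 outside-lesion arrays on 74 of 79 members (26.6% of all genes), and the median log2 deviation of the members was 0.11 on it and 0.91, 0.97 and 0.96 on replicates 1, 3 and 4. Of the members, 32 lay within the wild-type range on this array, 28 above it and 19 below. It was nevertheless above all ATLO arrays on 71 members (28.4% of all genes), as were the other outside-lesion arrays on 75, 73 and 75. The median log2 difference of the members from the ATLO mean was 0.79 on replicate 2 and 1.65, 1.73 and 1.72 on the others. Without it, 72 genes were lower in ATLO adventitia, the same 72 genes, and the median changes of complexes I to V were -1.77, -1.87, -2.14, -1.44 and -1.31, with cytochrome c at -2.36.

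Brown fat markers moved with the members between groups, and both were lowest on replicate 2 among the outside-lesion arrays. Among the ATLO arrays they did not move together. ATLO replicate 1 had the highest member median log2 deviation, -0.59, and the lowest of the brown fat list, -2.18. Wild-type replicate 3 and outside-lesion replicate 4 had similar Ucp1 signals, 20357 and 20513, and member medians of 0.17 and 0.96. The brown fat list as a whole also differed between these arrays, with median log2 deviations of 1.47 and 2.09. The part of brown fat markers in the result was not tested. Ucp1 read 14.2, 4.30, 695 and 661 on the ATLO arrays, 26125, 143, 26624 and 20513 on the outside-lesion arrays and 1573, 5513 and 20357 on the wild-type arrays. It was high on outside-lesion replicates 1, 3 and 4, and low on replicate 2 and on the ATLO arrays, where replicates 1 and 2 lay under the floor of 35.1. The summed signal of the brown fat list was 2047 to 6175 on the ATLO arrays, 8646 to 90995 on the outside-lesion arrays and 17863 to 50747 on the wild-type arrays, and its 9 tested genes had a median log2 change of -3.14, with 8 of them lower in ATLO than outside-lesion adventitia. The list includes Cox8b and Cox7a1, the complex IV isoforms described above, so it is not independent of that complex. Outside-lesion replicate 2 had the 8646. The general adipocyte list did not follow that array: its median log2 deviation was 0.81 there and 0.93, 0.53 and 0.52 on the others, and its summed signals were 55359 to 159189 in ATLO, 199403 to 337669 in outside-lesion and 123907 to 149431 in wild-type adventitia. On outside-lesion replicate 2 Ucp1 was lower than on ATLO replicates 3 and 4. The brown fat list had a median log2 deviation of -0.77 there, above every ATLO array (-2.18 to -1.35), and 71 members were above every ATLO array. Of 16 striated muscle genes 4 were tested and 2 were lower in ATLO, with summed signals of 373.7 to 1108 against 1154 to 1939.

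**Figure D4:**
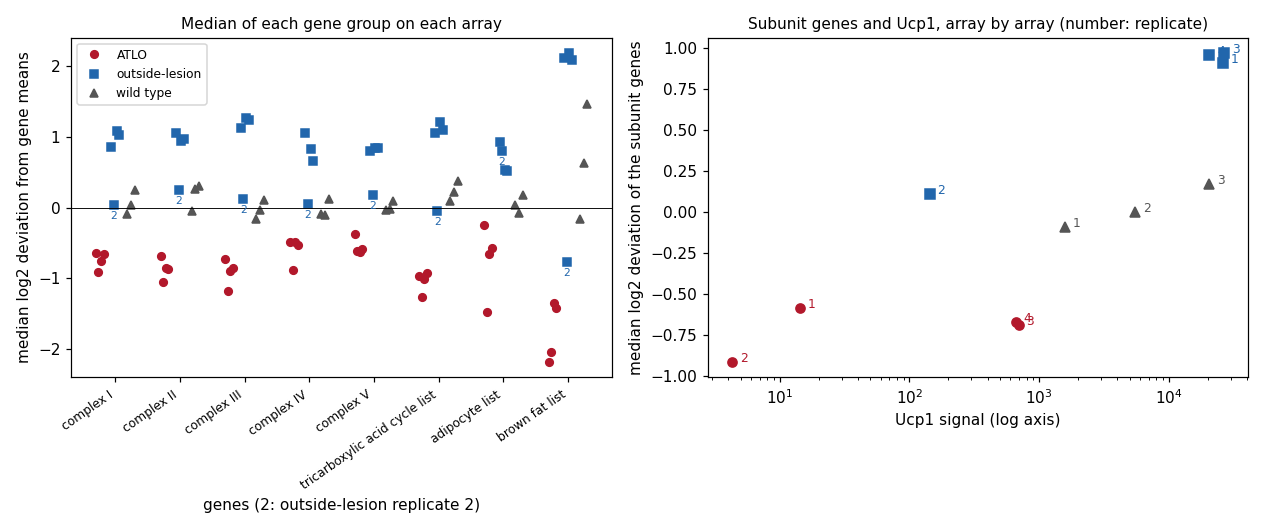
Left, the median log2 deviation per array of each complex, of the tricarboxylic acid cycle genes and of the adipocyte and brown fat marker lists. Right, the Ucp1 signal (log axis) against the median log2 deviation of the 79 members, 1 point per array: outside-lesion replicate 2 has a Ucp1 signal of 143 and a member median of 0.11, apart from the other outside-lesion arrays at 20513 to 26624 and 0.91 to 0.97.

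Against wild-type adventitia, ATLO adventitia had lower signals of subunits of every complex. Of 79 genes 39 fell and 0 rose, where 14% of all genes were called lower and 13.4% higher, and at an unadjusted p under 0.05 56 were lower and 0 higher. The median log2 change was -0.68, against -0.05 over all genes, and on 61 members every ATLO array lay below every wild-type array (21.9% of all genes). Lower were 20 of 34 genes of complex I (median -0.84), 4 of 4 of complex II (-1.08), 6 of 9 of complex III (-0.93), cytochrome c, 3 of 14 of complex IV (-0.58) and 5 of 17 of complex V (-0.47). The count rested on single arrays: it was 22 without wild-type replicate 3, all of them among the 39, and 54 without outside-lesion replicate 2, which enters this comparison only through the shared variance, floor and filter. Of all probe sets 18.8% and 28.5% were called in either direction in these fits, against 26.8% with all arrays. Without wild-type replicate 3, Cox6a2 was called higher by 1.27 ± 0.36 (SE, adjusted p = 0.0291). This comparison shares the ATLO arrays with the comparison above.

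The 5 largest called changes were those of Sdhd, -1.52 ± 0.26 (SE, adjusted p = 0.00118), Uqcrfs1, -1.41 ± 0.22 (SE, adjusted p = 0.000791), Cyc1, -1.41 ± 0.29 (SE, adjusted p = 0.00363), Ndufa4, -1.34 ± 0.27 (SE, adjusted p = 0.00325), and Ndufab1, -1.29 ± 0.23 (SE, adjusted p = 0.00178). On each of them every ATLO array was below every wild-type array. Sdha changed by -1.23 ± 0.18 (SE, adjusted p = 0.000484), with the smallest adjusted p, and Ndufs1 and Ndufv1 by -1.27 (adjusted p = 0.00239) and -1.22 (adjusted p = 0.0121). In complex IV the called genes were Cox8a, -1.12 (adjusted p = 0.00146), Cox8c, -0.82 (adjusted p = 0.00269), and Cox4i2, -1.18 (adjusted p = 0.0333), so 2 of the 3 were tissue isoforms. The general subunits Cox4i1, Cox5a and Cox5b had log2 differences of -0.62, -0.58 and -0.72, with adjusted p of 0.0652, 0.112 and 0.0663.

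In complex V the alpha and beta subunits Atp5a1 and Atp5b fell by log2 changes of -1.08 ± 0.20 (SE, adjusted p = 0.00184) and -0.85 ± 0.20 (SE, adjusted p = 0.00691). The 3 genes of the c ring were not called. Atp5md, with the largest change from outside-lesion adventitia in its complex, differed from wild type by -0.14 ± 0.27 (SE, adjusted p = 0.731), and Atp5h, a stalk subunit, by 0.04 ± 0.24 (SE, adjusted p = 0.912). Brown fat genes were lower than in wild type on 7 of 9 tested and adipocyte genes on 6 of 12, and their part in these differences was not tested.

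Outside-lesion adventitia, compared with the same wild-type arrays, had called higher signals of some subunits of complexes I, II, III and V and of cytochrome c. With all arrays 15 members were higher and 0 lower, where 1.4% of all genes were called higher and 1.68% lower, and at an unadjusted p under 0.05 56 were higher and 1 lower. The median log2 change was 0.70, against -0.12 over all genes, and on 27 members every outside-lesion array was above every wild-type array (7.51% of all genes), with 2 members, Cox4i2 and Cox8c, below (13.4% of all genes). Called higher were 7 genes of complex I, 1 of complex II, 3 of complex III, cytochrome c, 0 of complex IV and 3 of complex V. The actin 3' to 5' ratio was also higher on every outside-lesion array (6.22 to 11.99) than on every wild-type array (4.19 to 5.40). With it as a covariate 1 member was called higher, where 0.574% of all probe sets were called in either direction. With only the arrays of these groups 3 members were called higher, where 1.35% of all probe sets were called. Without outside-lesion replicate 2 the count was 58, including the same 15, with 27, 2, 9, 1, 7 and 12 in that order of complexes, where 5.98% of all probe sets were called in either direction, against 3.26% with all arrays. Leaving out single arrays otherwise gave 1, 0 and 2 without wild-type replicates 1, 2 and 3, 4, 4 and 2 without outside-lesion replicates 1, 3 and 4, and 12, 20, 10 and 9 without ATLO replicates 1, 2, 3 and 4, which enter this comparison only through the shared variance, floor and filter. The share of all probe sets called in these fits ran from 0.141% without wild-type replicate 2 to 4.71% without ATLO replicate 2.

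Atp5md had the largest called change, 1.69 ± 0.27 (SE, adjusted p = 0.0148). Uqcrc2 followed with 1.32 ± 0.29 (SE, adjusted p = 0.033) and Cycs with 1.25 ± 0.26 (SE, adjusted p = 0.0271). Atp5h, the d subunit of the stalk, changed by 1.16 ± 0.24 (SE, adjusted p = 0.0275) and Ndufb10, a supernumerary subunit, by 1.14 ± 0.21 (SE, adjusted p = 0.0218). On these 5 genes all outside-lesion arrays, replicate 2 included, were above all wild-type arrays. Ndufa2 and Sdhc were higher by 0.996 (adjusted p = 0.0177) and 1.01 (adjusted p = 0.0165). No gene of complex IV passed, but the 14 had a median log2 difference of 0.71, with general subunits such as Cox4i1 and Cox7a2 at 0.79 (adjusted p = 0.0818) and 0.79 (adjusted p = 0.0663). With all arrays, replicate 2 included, 0 of 9 brown fat genes and 1 of 12 adipocyte genes were called higher. Without replicate 2 these lists were not counted. The summed brown fat signal was 81245 to 90995 on outside-lesion replicates 1, 3 and 4 and 8646 on replicate 2. On the wild-type arrays it was 17863 to 50747. Every outside-lesion array was above every wild-type array on 8 of 12 adipocyte and 0 of 9 brown fat genes (7.51% of all genes). Wild-type Ucp1 itself ranged from 1573 to 20357.

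The other mitochondrial genes gave the setting of these changes, by lists that hold no member. All 16 genes of the tricarboxylic acid cycle, which feeds electrons to the chain, were lower in ATLO than outside-lesion adventitia (median log2 change -1.82), where 14.9% of all genes were called lower. Idh3a, a subunit of NAD-dependent isocitrate dehydrogenase, read 1781, 1459.5, 1486 and 1720.4 on the ATLO arrays, 9954, 4288, 11333 and 10551 on the outside-lesion arrays and 5392, 5599.8 and 9519.6 on the wild-type arrays. The groups did not overlap between ATLO and the rest, and the log2 change was -2.40 ± 0.28 (SE, adjusted p = 4.86e-05). Sucla2, a subunit of succinyl-CoA synthetase, changed by -2.38 ± 0.36 (SE, adjusted p = 0.000252). The list of mitochondrial carriers and related genes, not all of the inner membrane, was lower on 6 of 9 tested (median -0.62). It was led by the carnitine carrier Slc25a20 with -2.40 ± 0.29 (SE, adjusted p = 5.29e-05) and by uncoupling protein 3, Ucp3, with -1.70 ± 0.34 (SE, adjusted p = 0.00182).

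Genes that build the complexes had smaller median changes. Assembly factors were lower on 23 of 34 with a median of -0.60, including the F1 assembly factor Atpaf2, -2.14 ± 0.37 (SE, adjusted p = 0.000728), and the copper chaperone Cox17, -1.37 ± 0.27 (SE, adjusted p = 0.00182). The list of the mitochondrial ribosome, which makes the subunits encoded in mitochondrial DNA, was chosen by symbols starting with Mrpl or Mrps. Its genes were lower on 51 of 74 with a median of -0.62, including Mrps35, -1.29 ± 0.18 (SE, adjusted p = 0.000161). Mrps36, in the list by its symbol alone and not checked as a ribosome protein, changed by -1.58 ± 0.32 (SE, adjusted p = 0.00195). In both lists 0 genes were called higher by limma. The list of transcription and biogenesis factors was split, with 6 of 21 lower, 3 higher and a median of -0.03. Of all genes 14.9% were called lower and 19.8% higher, with a median of 0.11, so the 3 higher genes are not more than genes at large give.

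Ppargc1a, a coactivator of mitochondrial biogenesis, read 53.6, 47.1, 47 and 49.8 on the ATLO arrays, 741, 129, 497 and 273 on the outside-lesion arrays and 231, 174 and 714 on the wild-type arrays. It was lowest on all ATLO arrays and, among the outside-lesion arrays, on replicate 2. Its log2 change was -2.77 ± 0.50 (SE, adjusted p = 0.000962). Ppara, a nuclear receptor for fatty acids, was under the floor on all 4 ATLO arrays and read 583, 124, 587 and 968 in outside-lesion adventitia, so its log2 change of -3.68 (adjusted p = 0.000105) has only a lower bound in size. Higher in ATLO were Pprc1, a relative of Ppargc1a, with 0.56 (adjusted p = 0.0248), the mitochondrial DNA polymerase Polg with 0.43 (adjusted p = 0.0388) and the transcription factor Yy1 with 0.42 (adjusted p = 0.0311). Against wild type, ATLO adventitia was lower on 13 of 16 cycle genes, 14 of 34 assembly factors and 4 of 9 genes of the carrier list. It was lower on 23 of 74 genes of the ribosome list with 3 higher and on 4 of 21 biogenesis factors with 1 higher. In that comparison 14% of all genes were called lower and 13.4% higher. Outside-lesion adventitia differed from wild type on 2 assembly factors and 3 genes of the ribosome list, all higher, and on 0 genes of the other 3 lists by limma. There 1.4% of all genes were called higher and 1.68% lower.

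Probe sets of a gene were compared next. Of the 43 members with several tested probe sets, 37 had all of them lower in ATLO than outside-lesion adventitia, 1, Cox7a2l, had none called, and 5 were mixed, with at least 1 probe set not called. These were Ndufs4, Ndufs8, Uqcrq, Cox5b and Atp5c1. Against wild type the calls were mixed for 19 of the 43 in ATLO and 18 in outside-lesion adventitia. Of all 145 tested member probe sets 130 were lower and 0 higher, where 13.9% of all probe sets were called lower and 17.9% higher. For Atp5o, the stalk subunit that confers oligomycin sensitivity, the probe sets were called in opposite directions against wild type. The one with the higher signal gave -0.80 ± 0.22 (SE, adjusted p = 0.0183) and the other 0.73 (adjusted p = 0.0351), while both fell from outside-lesion adventitia, by log2 changes of -1.44 and -1.34. The cause was not tested.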

How the data were processed

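Total RNA of 11 tissue samples was measured on Affymetrix arrays, 4 ATLO, 4 outside-lesion and 3 wild-type. Each deposited value is a linear intensity of a probe set, which the authors made with GCOS 1.4, per the submitters' processing notes. The deposited intensities share a 2% trimmed mean of 500.2 on average, so the arrays were scaled to one level and every change is relative to the rest of an array. The sources used here do not give how probes were summarised.

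Of 22690 probe sets 64 controls were left out. The platform annotation gave 20380 probe sets 1 gene symbol, 691 several and 1555 none, and only the first kind was named. Signals were set to at least 35.1 (the 20th percentile over the table) before log2 was taken. Testing needed 3 or more arrays above the array's 40th percentile, which left 14988 probe sets. Each of 9055 genes was represented by its probe set of highest mean. The group means were modelled over the 11 arrays together in limma 3.58.1 (R 4.3.3) with a trended variance prior. Benjamini-Hochberg adjustment ran over all tested probe sets, and calls needed an adjusted p under 0.05. Log2 changes carry standard errors and signals SD. Promoter sequences came from RefSeq. The fit was tested on simulated data.

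The members and lists were chosen with earlier results of these data known. Named genes were, per complex, the 3 largest and 2 smallest changes between ATLO and outside-lesion, the genes not called there, the 5 largest called changes against wild type, the core subunits, isoform pairs and genes whose probe sets disagreed. The others named, such as probe sets with mixed calls and promoter matches, were chosen after their values were seen. The fit was repeated with quantile normalization, with equal array medians, with other floors and filters, on only the groups compared, with the replicate number as a block, without the trend, with the mean of all probe sets of a gene, the actin control ratio as a covariate and without each array in turn.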

Additional observations from a re-analysis of the deposited data

Results flagged for a closer look

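Members and complexes were checked for an array far from the others of its group, in 106 sets of 4 arrays, and 20 had one. For a single set chance gives about 1 in 20. The sets share the same arrays and many of their genes moved together, so they are not independent and the 20 cannot be set against that rate. Of these 20, 14 were outside-lesion replicate 2. The median log2 deviation of all members was 0.11 on it against 0.91 to 0.97 on the other outside-lesion arrays, that of complex II 0.25 against 0.94 to 1.05, that of complex III 0.13 against 1.12 to 1.26 and that of complex V 0.18 against 0.80 to 0.84.

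The same array was low for 10 genes. In complex I, Ndufb10 read 4238 against 6926 to 7439.5 on the others, Ndufb8 7350.1 against 18339 to 20354, and Ndufv2 7778 against 16867 to 17519. Sdhb of complex II read 5968 against 13695 to 14482. In complex III, Cyc1 read 6654 against 15367 to 17177, Uqcrc1 2747 against 7155 to 8429, and Uqcrc2 6804 against 15341 to 17391. Cox6b1 of complex IV read 17918 against 34374 to 38108. In complex V, Atp5b read 13594 against 21294 to 22213 and Atp5k 12497 against 20995 to 23329.

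Among the ATLO arrays, replicate 2 stood apart in the median of complex IV, at -0.88 against -0.53 to -0.48, in Sdhc, at 801 against 1159 to 1179, and in Ndufb1, at 311.6 against 122.1 to 143.3. ATLO replicate 1 stood apart in the median of complex V, at -0.37 against -0.62 to -0.59, and in Cycs, at 6703 against 4277 to 4410.4. Cox6b2 read 247 on outside-lesion replicate 1 against 146 to 150.6 on the others.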

How the results depend on the processing

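For ATLO against outside-lesion, the median log2 change of members was -1.29 to -1.72 over all repeats, and 64 members (with the actin ratio as a covariate) to 72 were lower under the 11 other settings, 70 to 72 with an array left out, and higher were 0 to 1. With the actin ratio 17% of all probe sets were called in either direction, against 31.9% in the main fit. Equal array medians moved the median of all probe sets in this comparison from 0.10 to -0.015. Against wild type, 26 to 57 members were lower in ATLO under the other settings (26 without a filter, 57 with quantile normalization), 22 to 54 with an array left out, and higher were 0 to 1. Of all probe sets 16% were called without a filter and 28.3% with quantile normalization, against 26.8% in the main fit. The 15 members higher in outside-lesion than wild-type adventitia became 7 with quantile normalization, 27 with equal array medians, 4 without a filter, 3 with only the groups compared, 6 without an intensity trend, 9 with the mean of all probe sets, 1 with the actin ratio as a covariate and 0 to 58 with an array left out. The shares of all features called moved too. In that order they were 3.1%, 4.26%, 1.33%, 1.35%, 1.65%, 1.82%, 0.574% and 0.141% to 5.98%, against 3.26% in the main fit. The labels do not say that replicate numbers pair the samples. Same-numbered arrays correlated at -0.18 to 0.27, with 5 of 10 pairs over 0.1, and differently numbered ones at -0.20 to 0.24, with 5 of 30 over 0.1, so the numbers were not taken as pairs. With the replicate number as a block the counts were 72, 48 and 8. Of 141 log2 changes of 47 named members, 15 reversed under some setting, none of them called, and the cause was not tested. Across all repeats, calls of named members were lost 10, 59 and 105 times and gained 1, 42 and 29 times in the 3 comparisons, in the order above. With ATLO against outside-lesion, Cox7a2l was 0.030 with quantile normalization and Ndufb1 -0.37 with the actin ratio, and with an array left out Cox7c ranged from -0.33 to 0.21, Ndufb1 from -0.16 to 0.29 and Cox7a2l from -0.10 to 0.015. With ATLO against wild type, Cox7c was 0.020 (quantile) and 0.034 (equal medians), Atp5h -0.091 (quantile) and -0.14 (mean of probe sets) and Cox7a2l -0.072 (mean of probe sets), and with an array left out Cox7c ranged from -0.12 to 0.17, Ndufb1 from -0.44 to 0.058, Atp5h from -0.13 to 0.16 and Atp5md from -0.34 to 0.076. With outside-lesion against wild type, Atp5g2 was -0.0031 and Atp5g3 -0.14 (quantile), Cox6a2 -0.039 (floor at the 30th percentile), -0.0085 (block) and -0.12 (actin ratio), Cox7c -0.038 (block), and Ndufb1 0.089, Cox6b2 -0.047 and Atp5g1 0.060 (actin ratio). With an array left out there, Cox6a2 ranged from -0.44 to 0.53, Cox6b2 from -0.023 to 0.24, Cox7c from -0.24 to 0.31 and Atp5g1 from -0.56 to 0.046. Cox4i2 lay under the floor on 1 ATLO array, which understates its difference.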

Other observations

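Probe sets that the annotation gives to a member and to further genes were left out of all counts. There were 8, of which 7 were tested, and 6 were lower in ATLO than outside-lesion adventitia and 0 higher by limma, with log2 changes between -1.74 and -0.61.

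The members took 1.78% to 2.04% of the summed signal of the ATLO arrays, 3.15% to 5.65% of the outside-lesion arrays and 3.03% to 3.43% of the wild-type arrays, and the lowest outside-lesion share was that of replicate 2. The coefficient of variation of a member between arrays had a median of 16.0% in ATLO, 28.0% in outside-lesion and 10.2% in wild-type adventitia. Single wild-type arrays were above all ATLO arrays on 64, 65 and 70 of the 79 members, where the same held for 35.5%, 33.4% and 34.9% of all genes.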
